A study of Mus musculus with 4 samples.

Results

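The collagens outside cartilage are the collagen genes of the connective tissue, the basement membranes and the cell surface, read here in muscle dissected from mouse embryos. They were taken as every gene whose array symbol is Col, a number, a and a number, leaving out the 8 collagens of cartilage (Col2a1, Col9a1, Col9a2, Col9a3, Col10a1, Col11a1, Col11a2 and Col27a1). The rule found 34 genes with 69 probe sets among 18193 named genes, and no measured value entered it. A probe set is a group of short probes that reads 1 transcript, and 23 of the 34 genes have more than 1. All 34 were matched by Entrez number to the RefSeq gene table of GRCm38.p6. That table lists 36 collagens of this kind, and Col28a1 and Col6a6 have no probe set with their symbol here. By class, 7 of the 34 form fibrils, 8 belong to basement membranes and 19 are of other kinds.

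RNA was measured at E13.5 on 1 Affymetrix array for each of 4 groups, all of BALB/c background. The groups are wild-type (WT) limb muscle, limb muscle of the MyoD null genotype (MyoD-/-), WT back muscle and back muscle of the Myf5 null genotype (Myf5-/-). MyoD, made by Myod1, acts with Myf5 to set embryonic cells on the path to muscle, and the series title concerns the part played by muscle in the development of motor neurons. How many embryos each RNA came from, which limbs were taken and which stretch of each gene the null alleles lack, the sources used here do not say. With 1 array per group there is no replicate error: every difference below is between single arrays, and no p-value was computed. In these pieces of whole tissue, fewer cells of a type and less RNA per cell cannot be told apart.

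Collagens are trimers of chains wound into a triple helix. Type I, III and V chains assemble into the fibrils that give connective tissue its strength, and in muscle they fill the sheaths around fibres and bundles. Type IV chains form the sheet-like network of basement membranes, which coat each muscle fibre and underlie epidermis, vessels and nerve. Type VI forms beaded filaments between the fibre's basement membrane and the fibrils, fibril-associated collagens decorate fibril surfaces, and transmembrane collagens sit in the cell membrane.

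Signals were brought to a trimmed mean of 500 on each array, signals under 100 were treated as having no level, and a gene was called when the arrays differed at least 2-fold with the brighter at 200 or more. Myod1 read 1438 in WT and 688 in MyoD-null limb, and its dimmer probe set read 209 and 92.1. Myf5 read 583 in the array labelled Myf5-null and 508 in WT back, and was not lower there, so that array is called Myf5-labelled back. All 13 skeletal muscle markers had a level on every array, and their summed signal was 78804 and 50329 in WT and MyoD-null limb and 150512 and 100380 in WT and Myf5-labelled back. The pieces also held the 10 epidermis markers on every array, with sums of 8333 to 15683, 9 or 10 of 10 fibroblast markers, with sums of 32334 to 38018, and 11 to 14 of 15 cartilage markers, with sums of 8014 to 25930. The ratio of the 3' to the 5' control probe sets, a sign of RNA length, was highest in WT limb for both controls, at 12.2 for Gapdh and 6.88 for Actb, against 6.45 to 9.46 and 3.2 to 4.28 in the other arrays.

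Promoter sequence was available from RefSeq (GRCm38.p6) for 27 of the 34 genes, in 29 windows. The 4 given here are the 250 bases before the start of Col1a2 and Col3a1, whose fibrillar chains were among the members at 1000 or more on every array, and of Col13a1 and Col16a1, which were called in opposite directions between WT limb and WT back. They are written 5' to 3' on the gene's strand, and capitals mark the CCAAT box, the TATA box searched as TATAAA, and the Sp1-type motif GGGCGG, each on either strand.
Col1a2, chr6:4505368-4505617, plus strand: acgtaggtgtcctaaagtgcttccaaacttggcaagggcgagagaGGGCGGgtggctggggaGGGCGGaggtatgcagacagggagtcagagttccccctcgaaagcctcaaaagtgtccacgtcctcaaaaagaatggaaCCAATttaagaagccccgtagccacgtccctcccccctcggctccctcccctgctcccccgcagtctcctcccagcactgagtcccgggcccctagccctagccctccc
Col3a1, chr1:45311288-45311537, plus strand: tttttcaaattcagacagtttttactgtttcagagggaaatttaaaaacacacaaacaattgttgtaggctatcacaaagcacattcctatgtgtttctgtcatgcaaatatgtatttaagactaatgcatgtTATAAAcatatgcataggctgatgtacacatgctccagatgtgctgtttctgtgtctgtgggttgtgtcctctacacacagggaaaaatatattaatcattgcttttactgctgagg
Col13a1, chr10:61979109-61979358, minus strand: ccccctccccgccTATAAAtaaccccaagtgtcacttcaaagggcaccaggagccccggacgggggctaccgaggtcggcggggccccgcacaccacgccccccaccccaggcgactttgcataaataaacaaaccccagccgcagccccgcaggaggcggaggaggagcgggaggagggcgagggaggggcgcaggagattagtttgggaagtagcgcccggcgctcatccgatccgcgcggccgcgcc
Col16a1, chr4:130047590-130047839, plus strand: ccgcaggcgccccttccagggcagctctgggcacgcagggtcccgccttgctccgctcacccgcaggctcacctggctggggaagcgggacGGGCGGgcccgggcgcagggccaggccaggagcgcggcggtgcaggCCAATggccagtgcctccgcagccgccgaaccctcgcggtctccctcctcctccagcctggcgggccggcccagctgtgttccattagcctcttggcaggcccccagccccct
Counted from the start, with bases before it negative, Col1a2 had CCAAT at -109 and GGGCGG at -205 and -188, and Col16a1 had CCAAT at -113 and GGGCGG at -159. Col3a1 had TATAAA at -117, and Col13a1 at -237. Among the windows of the collagens, 11 of 29 held CCAAT, 3 held TATAAA and 17 held GGGCGG. Over all 32851 promoter windows of that length the shares were 33.8%, 12.4% and 32.7%. A match is a run of letters and not a shown binding site. On chromosome 8 the starts of Col4a1 on the minus strand (11312826) and Col4a2 on the plus strand (11312805) overlap by 22 bases, and on chromosome X those of Col4a6 (minus, 141474076) and Col4a5 (plus, 141475419) lie 1343 bases apart, each pair transcribed away from each other.

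All 34 collagens reached 100 on at least 1 array, 28 reached it on all 4 and 14 reached 1000 on all 4. Those at 1000 or more everywhere were Col1a1, Col1a2, Col3a1, Col4a1, Col4a2, Col5a1, Col5a2, Col6a1, Col6a2, Col6a3, Col8a2, Col14a1, Col18a1 and Col26a1, which takes in the chains of the common type I, III, IV, V and VI trimers. Col4a4, Col4a6, Col6a4 and Col6a5 stayed under 200 on every array. Signals of different probe sets are not on a common scale, so the order of genes by signal is no order of transcript abundance.

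**Figure D1:**
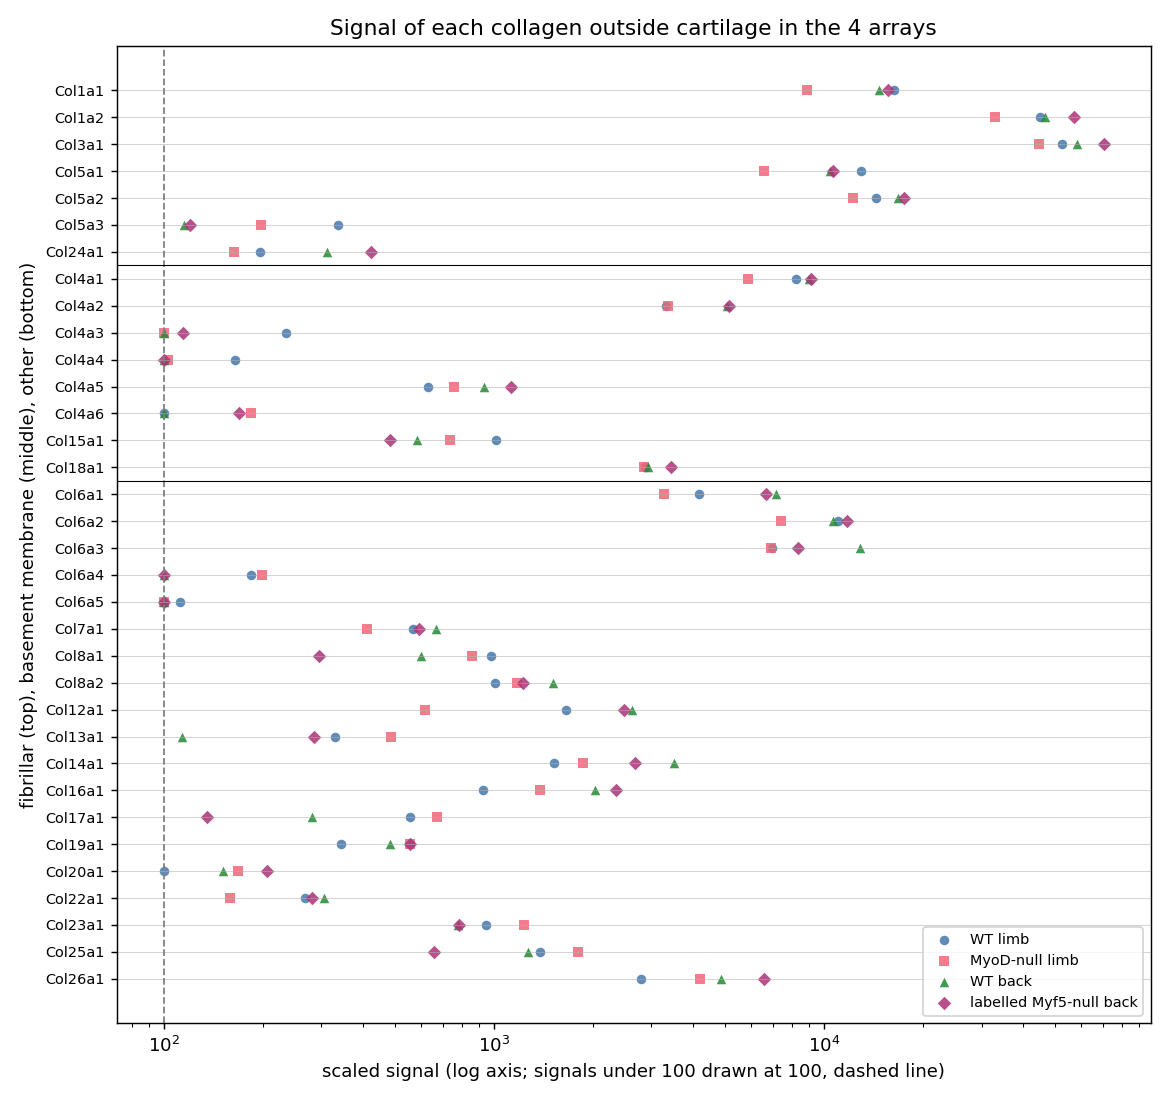
Scaled signal of the 34 collagens on a log axis, 1 row per gene in the order fibrillar, basement membrane and other, with 1 point for each of the 4 arrays and the level of 100 as a dashed line. As drawn, with signals under 100 at 100, the points of Col17a1, Col13a1 and Col12a1 lie farthest apart; levels in different rows cannot be compared.

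In MyoD-null limb, Col12a1, a fibril-associated chain, and Col4a3, a basement membrane chain, were called lower than in WT limb, and the other collagens were not called. Of the 34 genes, 0 were called higher and 2 (5.88%) lower. Over the 14496 genes measured in that pair, 2.3% were called higher and 5.19% lower, so the share called lower lay near that of all genes. The log2 ratio was above 0 for 14 and below 0 for 20 collagens, with a median of -0.18 against -0.04 over all genes. It was below 0 for 7 of 7 fibrillar genes by the probe sets used for them, with a median of -0.45 and 0 called, and the median was -0.24 over 8 basement membrane genes and 0.22 over 19 others. The fibrillar count was 6 of 7 after quantile normalization (median -0.16) and 5 of 7 after loess (median -0.20). Loess and a floor of 200 ended the call of Col4a3, and the median over probe sets that of Col12a1.

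In the back pair 0 fibrillar and 0 basement membrane collagens were called, and the calls lay among short-chain and transmembrane collagens. Of 31 collagens with a level in that pair, 1 (3.23%) was called higher, Col13a1, and 2 (6.45%) lower, Col17a1 and Col8a1. Over the 14684 genes measured there, 5.5% were called higher and 2.48% lower. Both shares rest on 1 or 2 genes. Col4a4, Col6a4 and Col6a5 were under 100 in both back arrays. The log2 ratio was above 0 for 20 of the 31 and below 0 for 11, with a median of 0.06 against 0.05 over all genes. The cartilage collagens left out by the rule were unlike them: 4 of 7 with a level were called lower, and their median was -2.16, between -1.57 and -2.16 under every setting run. Of the calls among the 31, that of Col13a1 ended with loess, at 0.93, and all 3 ended with a pseudocount of 100.

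Between the WT pieces, the fibril-associated Col14a1 and Col16a1 were called lower in limb than in back, and the transmembrane Col13a1, with Col4a3 and Col5a3, higher. Of 33 collagens with a level in 1 of the WT arrays, 3 (9.09%) were called higher in limb and 2 (6.06%) lower. Over all 14605 genes measured there, 5.3% were called higher and 3.5% lower. Only Col4a6 was under 100 in both WT arrays. The median log2 ratio of limb over back was -0.13 over the collagens and 0.04 over all genes, and was -0.05 in the fibrillar, -0.03 in the basement membrane and -0.23 in the other class. A floor of 200 ended the 3 calls of higher signals in limb, and loess that of Col4a3. This comparison shares an array with each of the others, so its values are not independent of theirs.

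Read probe set by probe set, the median log2 ratio was 0.01 over the 56 collagen probe sets with a level in the limb pair, where it was -0.18 by gene. It was 0.05 over 52 in the back pair and -0.23 over 53 for WT limb over WT back. Probe sets of the same collagen differed from each other by a median SD of 0.30 in the limb pair, 0.16 in the back pair and 0.33 between the WT pieces, over 14 genes each, and lay on both sides of 0 in 6, 4 and 7 of them. Over all genes that SD was 0.35, 0.32 and 0.35. It measures disagreement between probes and says nothing about animals.

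Type I collagen is the main fibril of tendon, skin and the connective tissue of muscle, and is built of Col1a1 and Col1a2 chains. Col1a1 had a signal of 16300 and 8868 in WT and MyoD-null limb and 14689 and 15641 in WT and Myf5-labelled back, giving log2 ratios of -0.88 in the limb pair, 0.09 in the back pair and 0.15 for WT limb over WT back. Signals and ratios of the genes that follow keep this order. The MyoD-null limb alone stood low, and the other 3 arrays lay together. Its dimmer probe set read 2296, 1921, 2480 and 2758 in the same order, a smaller difference in the limb pair (-0.26) and the other sign between the WT pieces (-0.11). Col1a2 had signals of 45082, 32989, 46690 and 57259, again lowest in MyoD-null limb, with ratios of -0.45, 0.29 and -0.05. A second Col1a2 probe set had ratios of -0.20, 0.16 and -0.47. Another, between 152 and 378, had 0.24, 0.99 and -0.33, so the sign in the limb pair differed among the Col1a2 probe sets.

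Type III collagen, a homotrimer of Col3a1 that mixes with type I in pliable tissue, had signals of 52768 and 44796 in WT and MyoD-null limb and 58555 and 70274 in WT and Myf5-labelled back, with ratios of -0.24, 0.26 and -0.15. The other Col3a1 probe set read 4741, 5891, 8781 and 7505 and had the opposite sign in both mutant pairs, at 0.31 and -0.23. No direction can therefore be given for Col3a1 in either pair.

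Type V collagen sits in the core of type I fibrils and governs their start and width. Col5a1 had signals of 12962, 6586, 10423 and 10680, so that MyoD-null limb was lowest and the ratio in the limb pair (-0.98) was just short of the 2-fold line, against 0.04 in the back pair and 0.31 between the WT pieces. Its other probe sets did not share that difference, with limb ratios of -0.05 at signals of 3469 to 4499 and 0.55 at signals of 133 to 412. Those probe sets were also below 0 in the back pair (-0.02 and -0.54) and between the WT pieces (-0.32 and -1.63). Col5a2, its usual partner chain, read 14321, 12230, 16765 and 17498, with ratios of -0.23, 0.06 and -0.23, and its other probe set had 0.38, -0.12 and -0.33. Col5a3, a less widespread chain of the same type, read 336 and 197 in WT and MyoD-null limb and 115 and 120 in WT and Myf5-labelled back, with ratios of -0.77, 0.07 and 1.55. WT limb was the high array for Col5a3, and its other probe set was under 100 throughout. Col24a1, a fibrillar chain known from developing bone, read 196, 163, 312 and 423, higher in both back arrays than in either limb array, with ratios of -0.27, 0.44 and -0.67.

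The ratios of the fibrillar probe sets went with their brightness in the limb pair. In 5 of the 5 genes with several probe sets that reached 100 on both arrays, the brightest probe set had the lowest limb ratio. For WT limb over WT back the brightest had the highest ratio in 5 of 5, and in the back pair it had the highest in 3 and the lowest in 1 of 5. The brightest probe set is the one that stands for the gene, and when a gene took the median of its probe sets, the limb ratio was below 0 in 5 of 7 fibrillar genes (median -0.20) and the back ratio above 0 in 5 of 7. The 3'/5' ratio of Gapdh was 12.2 in WT and 8.06 in MyoD-null limb, where these fibrillar ratios lay below 0, and 6.45 in WT and 9.46 in Myf5-labelled back, where they lay above 0. That of Actb went the same way, at 6.88 and 3.86 in the limb pair and 3.2 and 4.28 in the back pair. The part of these RNA ratios in the fibrillar values was not tested, and that of signal brightness was not tested beyond the quantile and loess values.

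**Figure D2:**
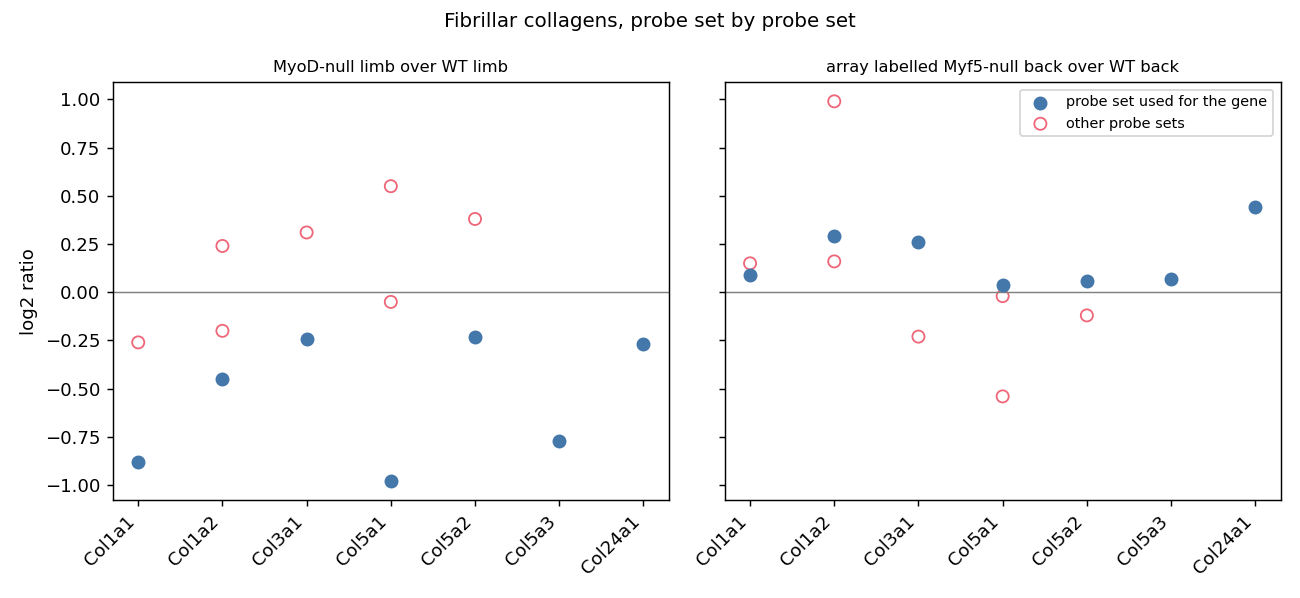
Log2 ratio of each probe set of the fibrillar collagens with a level, MyoD-null limb over WT limb on the left and Myf5-labelled back over WT back on the right; filled points are the probe sets used for the genes and open points the others. On the left the filled points lie below 0 in 7 of 7 genes and below the open points of the same gene, while on the right they lie above 0 by 0.04 to 0.44; after quantile normalization 6 of 7 stay below 0 on the left and 3 of 7 above 0 on the right.

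In the basement membrane class, Col4a1 and Col4a2 form the common type IV trimer. Col4a1 read 8224 and 5864 in WT and MyoD-null limb and 9003 and 9148 in WT and Myf5-labelled back, with ratios of -0.49, 0.02 and -0.13. Its other probe set was likewise lower in MyoD-null limb (-0.38), with 0.11 in the back pair and between the WT pieces. Col4a2 read 3313, 3373, 5098 and 5135: the limb arrays lay together at 0.03, the back arrays at 0.01, and the ratio of WT limb over WT back was -0.62. The partner chains, whose starts overlap on chromosome 8, thus had unlike ratios in the limb pair and like ratios in the back pair.

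The remaining type IV chains form the networks of specialised basement membranes such as those of kidney and lung. Col4a3 read 234 in WT limb and 114 in Myf5-labelled back and was under 100 in the other arrays, which makes it at least 2.34-fold higher in WT limb than in MyoD-null limb and than in WT back. Its other probe set was under 100 on every array, and Col4a3 was measured in the limb pair through WT limb alone. Col4a5 read 633, 757, 932 and 1126, higher in each mutant than in its WT array (0.26 and 0.27) and lower in limb than in back (-0.56), and its second probe set had ratios of 0.11, 0.89 and -0.62. Col4a4 lay between 27.8 and 164, and Col4a6, the neighbour of Col4a5, had 183 and 169 in the mutants and under 100 in both WT arrays. The other Col4a6 probe set had a level in MyoD-null limb alone, at 163.

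Types XV and XVIII join basement membranes to the matrix around them, and the tail of Col18a1 is the source of endostatin. Col15a1, which is known from the basement membranes of muscle fibres and capillaries, read 1017 and 738 in WT and MyoD-null limb and 585 and 484 in WT and Myf5-labelled back. It was lower in each mutant (-0.46 and -0.27) and higher in limb than in back (0.80). The summed muscle markers were lower in each mutant too, but were lower in WT limb than in WT back, and their part in Col15a1 was not tested. Col18a1 read 2873, 2850, 2934 and 3442 and was among the most even members, with ratios of -0.01, 0.23 and -0.03. Its other probe set had -0.15, 0.36 and -0.16.

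Type VI chains, made mostly by fibroblasts and best known in muscle because their loss causes muscular dystrophy, did not share 1 pattern. Col6a1 read 4165 and 3270 in WT and MyoD-null limb and 7148 and 6650 in WT and Myf5-labelled back, with ratios of -0.35, -0.10 and -0.78. Col6a2 read 11039, 7401, 10647 and 11708, with ratios of -0.58, 0.14 and 0.05. Col6a3 read 6931, 6916, 12852 and 8346, with ratios of 0.00, -0.62 and -0.89. MyoD-null limb was the lowest array for Col6a1 and Col6a2 and level with WT limb for Col6a3, and WT back was the highest for Col6a1 and Col6a3. The other Col6a2 probe set had -0.37, 0.21 and -0.58, so that by this probe set Col6a2 too was lower in limb than in back. Col6a4 lay between 37.7 and 198, and Col6a5 between 12.4 and 112.

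Fibril-associated collagens bind the surface of fibrils through interrupted helices. Col12a1, a chain of tendon, fascia and bone surfaces, read 1648 and 618 in WT and MyoD-null limb and 2626 and 2474 in WT and Myf5-labelled back, so that MyoD-null limb stood far below the rest (-1.42) and the back arrays lay together (-0.09). The Col4a3 ratio in that pair is a bound set by the floor, and at a floor of 50 it was -2.23, past that of Col12a1. The dimmer Col12a1 probe set, shared between transcript forms, read 303, 447, 984 and 368, with 0.56 in the limb pair and -1.42 in the back pair, the reverse pattern. The median over both Col12a1 probe sets was -0.43 in the limb pair. Both probe sets were lower in WT limb than in WT back, at -0.67 and -1.70. Over the 7 tendon markers the summed signals were 6793 and 5092 in WT and MyoD-null limb, and 6478 and 5573 in WT and Myf5-labelled back; their part in the Col12a1 values was not tested.

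Col14a1, a related chain of dense connective tissue, read 1520 and 1866 in WT and MyoD-null limb and 3517 and 2673 in WT and Myf5-labelled back. Both limb arrays were below both back arrays, and the ratio of WT limb over WT back was -1.21, with -1.18 in the other probe set. In the mutant pairs the Col14a1 ratios were 0.30 and -0.40, and 0.55 and -0.62 by the other probe set. Col16a1, found near basement membranes and in fibrillar matrix, read 929, 1379, 2025 and 2335, also with both limb arrays below both back arrays, and ratios of 0.57, 0.21 and -1.12. Col19a1, which is known from embryonic muscle and certain synapses, read 343, 555, 483 and 555, with WT limb lowest, and ratios of 0.70, 0.20 and -0.50. A second Col19a1 probe set had no level in the limb arrays and read 191 and 94.1 in the back arrays (-0.93), and another read 77.4 and 142 there (0.51). Col20a1 read 13.6, 167, 151 and 205, without a level in WT limb, with ratios of 0.74, 0.44 and -0.60, and its other probe set reached 113 in WT and 158 in MyoD-null limb and had the opposite sign for WT limb over WT back (0.17). Col22a1, a chain of the muscle-tendon junction, read 267, 158, 306 and 280, lowest in MyoD-null limb, with ratios of -0.76, -0.13 and -0.20. A second Col22a1 probe set was likewise lower in MyoD-null limb (-0.88) and another, which can share probes with other transcripts, had the opposite sign in each comparison, at 0.38, 0.11 and 0.71.

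By the probe sets used for the genes, the ratio of WT limb over WT back was below 0 in 6 of 6 fibril-associated collagens, with a median of -0.63, and 2 of the 6 were called. Over all genes 6830 lay below 0 and 7775 above 0, and 3.5% were called lower. Other probe sets of Col22a1 (0.71) and Col20a1 (0.17) lay above 0. The count of those below 0 was 6 of 6 after quantile normalization (median -0.66) and after loess (median -0.69). In the limb pair 4 of the 6 lay above 0 (median 0.43), and in the back pair 3 of 6 did, with a median of 0.06 that turned to -0.01 after loess. The size of each WT difference relative to animals is unknown, and the 3'/5' ratios were higher in WT limb than in WT back, a difference whose part was not tested.

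The transmembrane collagens lay on the other side between the WT pieces by the probe sets used for them, and 1 of 4 was called. Over all genes 5.3% were called higher in that comparison. Col13a1, a chain of the neuromuscular junction and other adhesion sites, read 329 and 488 in WT and MyoD-null limb and 113 and 285 in WT and Myf5-labelled back. WT back was the low array, and the ratios were 0.57 in the limb pair, 1.33 in the back pair and 1.54 for WT limb over WT back, all from a single probe set. Col17a1, a component of the hemidesmosomes that fasten epidermis to its basement membrane, read 556, 671, 280 and 135, with ratios of 0.27, -1.05 and 0.99. Both limb arrays were above both back arrays. The summed epidermis markers were 13804 and 15683 in WT and MyoD-null limb and 8333 and 10695 in WT and Myf5-labelled back. Their part in the Col17a1 values was not tested. Col7a1, whose anchoring fibrils lie under the same epidermis, read 569, 411, 668 and 591, with ratios of -0.47, -0.18 and -0.23, and so did not share the order of Col17a1.

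Col23a1 read 946 and 1230 in WT and MyoD-null limb and 778 and 781 in WT and Myf5-labelled back, with ratios of 0.38, 0.01 and 0.28. A second Col23a1 probe set had 0.08, 0.07 and -0.21, and another 0.60, -1.34 and -0.75, so limb over back had either sign. Col25a1, a chain needed in muscle for its innervation by motor axons, read 1375, 1793, 1266 and 659, with Myf5-labelled back lowest, and ratios of 0.38, -0.94 and 0.12. Its other probe set had a level in MyoD-null limb alone, at 170. By these probe sets all 4 transmembrane collagens were above 0 in the limb pair (median 0.38) and for WT limb over WT back (median 0.64), under quantile normalization and loess as well. With the median over probe sets, 3 of 4 were above 0 between the WT pieces. In the back pair they split, 2 above and 2 below 0.

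**Figure D3:**
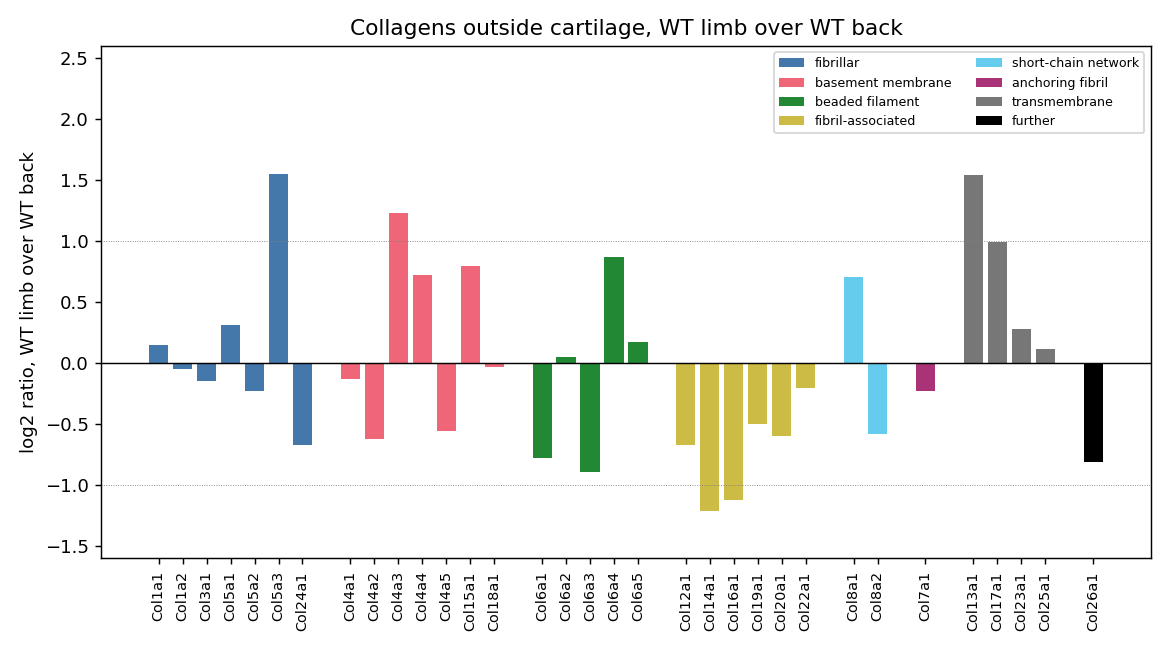
Log2 ratio of WT limb over WT back for the collagens with a level in 1 of these arrays, as bars from 0, grouped by class and subclass, with 1 array per side and so no error bars. By the probe sets drawn, the 6 fibril-associated genes lie below 0 and the 4 transmembrane genes above it, also after quantile normalization and loess, though other probe sets of Col20a1, Col22a1 and Col23a1 have the opposite sign, while the fibrillar and basement membrane genes lie on both sides.

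Type VIII chains form a short-chain network known from vessel walls and cornea. Col8a1 read 976 and 859 in WT and MyoD-null limb and 599 and 294 in WT and Myf5-labelled back, with ratios of -0.18, -1.02 and 0.71. Its second probe set read between 270 and 325 on all arrays, with -0.16 in the back pair and -0.05 between the WT pieces, so the called difference was not shared, and another reached 102 in Myf5-labelled back alone (0.03). Its partner Col8a2 read 1009, 1177, 1507 and 1225, with ratios of 0.22, -0.30 and -0.58. By the probe sets used for the genes, limb was higher than back for Col8a1 and lower for Col8a2. The 10 endothelium markers summed to between 5704 and 6163 on the 4 arrays, with 5 above 0 and 5 below 0 for WT limb over WT back. Their part in the type VIII values was not tested. Col26a1, a small collagen known from developing reproductive organs, read 2779 and 4213 in WT and MyoD-null limb and 4879 and 6559 in WT and Myf5-labelled back. It was higher in each mutant than in its WT array (0.60 and 0.43) and lower in limb than in back (-0.81).

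The mutant pairs share no array, and their ratios can be set side by side for 31 collagens. By the probe sets used, the fibrillar class lay below 0 in the limb pair and above 0 in the back pair in 7 of 7 genes, none of them called, with a median difference of -0.74 between the ratios. The same held for 3 of 7 basement membrane genes and 1 of 17 others, and for 11 of 31 in all. After quantile normalization the fibrillar difference was -0.35 and after loess -0.27, each with 6 of 7 genes lower in the limb pair. No collagen was called in opposite directions. The difference was not tested, since each pair is 1 array against 1, and Myf5 itself was not lower in Myf5-labelled back. By the probe sets used, Col4a5, Col4a6, Col13a1, Col16a1, Col19a1, Col20a1 and Col26a1 were at 0.20 or more in both pairs. Of these Col4a6 had 0.88 and 0.76 with no level in either WT array, and Col13a1 had 0.57 and 1.33. The other Col4a6 probe set had no level in either back array, and another Col19a1 probe set had -0.93 in the back pair.

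**Figure D4:**
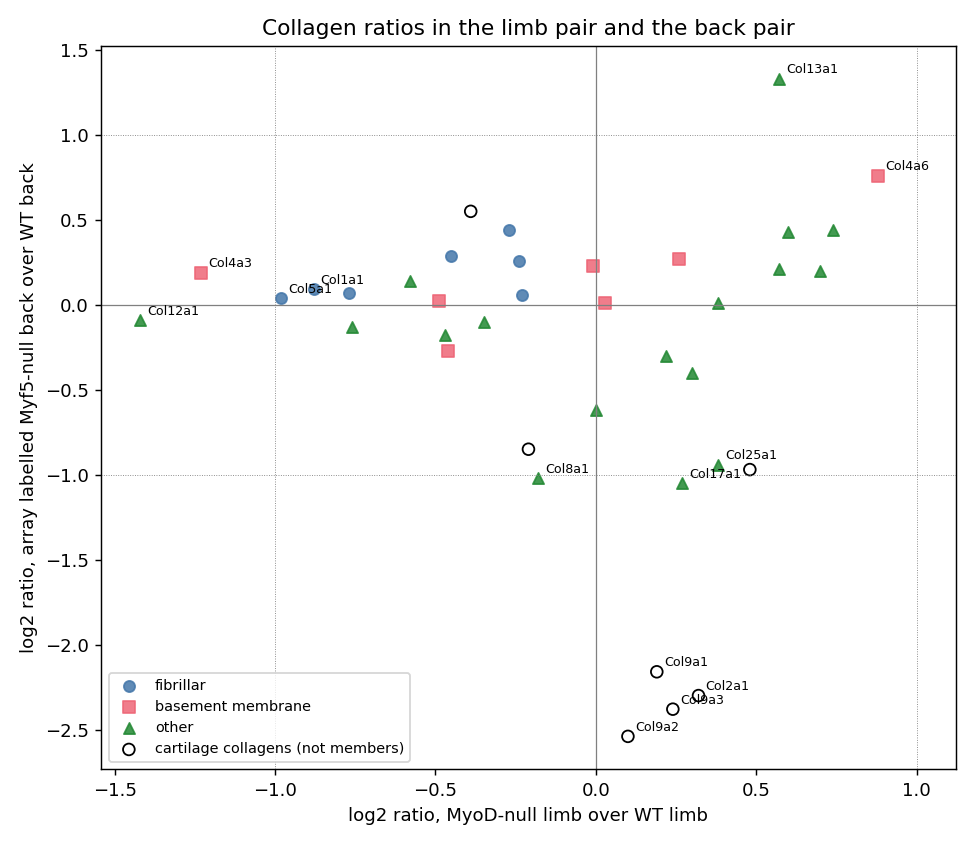
Log2 ratio of each collagen in the limb pair (horizontal) against the back pair (vertical), coloured by class, with the cartilage collagens as open circles. The fibrillar genes lie left of 0 and slightly above 0 (6 of 7 left of it and 3 of 7 above it after quantile normalization), and Col12a1 lies farthest left. Of the 7 cartilage collagens 6 lie below 0 on the vertical axis, and Col27a1 lies at 0.55. The median of the 7 is -2.16 on the vertical axis and 0.19 on the horizontal.

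The cartilage collagens gave a contrast within the gene family. In the back pair Col2a1 read 5495 in WT and 1119 in Myf5-labelled back (-2.30), and Col9a1 read 5480 and 1224 (-2.16). In the limb pair these were 3343 and 4173, and 6201 and 7082. Col27a1 was above 0 in the back pair, at 963 and 1413 (0.55), though its other probe set had -0.26. The cartilage markers, which include these collagens, summed to 25930 in WT back and 8014 in Myf5-labelled back, against 22252 and 25673 in WT and MyoD-null limb. Col1a1, Col1a2 and Col3a1 of the fibrils outside cartilage were at 0.09, 0.29 and 0.26 in that same back pair.

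Genes that act on collagens were read from 6 lists. For comparison, 2.3% of all measured genes were called higher and 5.19% lower in the limb pair. The shares were 5.5% and 2.48% in the back pair, and 5.3% and 3.5% between the WT pieces. Of the enzymes and chaperones of collagen synthesis and folding, 0 of 21 were called in the limb pair and 16 lay above 0 (median 0.16). The back pair had 1 of 22 called higher and 0 lower (median -0.07), and between the WT pieces 1 of 22 was called lower and 18 lay below 0 (median -0.45). Serpinh1, the collagen chaperone Hsp47, read 33091 and 26496 in WT and MyoD-null limb and 29531 and 37946 in WT and Myf5-labelled back, with ratios of -0.32, 0.36 and 0.16. Plod1, a lysyl hydroxylase that prepares chains for cross-linking, read 1002, 1197, 2008 and 1481, highest in WT back, with ratios of 0.26 and -0.44 in the mutant pairs, and was the gene called lower in limb. Tmem38b, a channel of the endoplasmic reticulum that collagen processing depends on, was higher in each mutant (0.98 and 1.41), although the limb ratios of its other probe sets were 1.09, 0.19 and -0.26 and their back ratios 0.61, 0.19 and 0.02.

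Of the genes for trimming and cross-linking, 0 of 9 were called in the limb pair (median 0.23), and 0 of 10 higher and 1 lower in the back pair (median -0.07). Between the WT pieces 2 of 10 were called lower in limb and 9 lay below 0 (median -0.45, and -0.55 and -0.62 after quantile normalization and loess). Lox, the main lysyl oxidase, read 1829 and 2146 in WT and MyoD-null limb and 3396 and 3440 in WT and Myf5-labelled back. Both Lox values in limb were below both in back (WT ratio -0.89, and -0.24 in its other probe set). The related Loxl1 had the same order, at 990, 971, 2016 and 1956 (-1.03). Adamts3, which removes the amino-terminal propeptide, read 264, 419, 573 and 467, with a WT ratio of -1.12. Pcolce2, an enhancer of the carboxy-terminal cut, read 339 in WT back and had no level in Myf5-labelled back, at least 3.39-fold lower.

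Of 10 collagen receptors, 1 was called higher in the limb pair (median -0.21, turning to 0.03 after loess) and 1 lower in the back pair (median 0.03, turning to -0.12 and -0.09 after quantile normalization and loess). Both calls are Itgb1, the common chain of collagen-binding integrins, at 527, 1599, 1446 and 643, as is the 1 of 9 called lower in WT limb than in WT back (median -0.09), and its other probe sets had limb ratios of 0.77, 0.00 and -0.38. Of the proteases and inhibitors, 0 of 11 were called in the limb pair (median -0.28). The back pair had 1 of 12 called higher, Mmp8, a collagenase of white blood cells, and 11 of 12 lay above 0 (median 0.20). Mmp8 read 270, 149, 82.2 and 218, and was also the 1 of 11 called higher in WT limb than in WT back (median 0.21).

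Among 17 partners of type IV collagen in basement membranes, 3 were called lower and 0 higher in the limb pair, where the median of -0.03 turned to 0.09 after quantile normalization and loess. They were the laminin chains Lama5, at 1141 in WT and 451 in MyoD-null limb, Lamb3, at 239 and 99, and Lamc3, at 244 and 15.4. None was called in the back pair, where the median was -0.10. Between the WT pieces these 3 were called higher in limb, as Col4a3 was. Both sets of calls use the same WT limb array, so they are not independent. The lower calls in the limb pair fell to 1 under loess, a floor of 200 and the median over probe sets, and to 2 with a pseudocount of 100. In that pair 1 partner was called higher under quantile normalization and under loess. The higher calls between the WT pieces fell to 1 under loess and a floor of 200, to 2 with the median over probe sets and to 0 with the pseudocount. Between the WT pieces Nid2, Smoc2 and Lama4 were called lower, at ratios of -1.29, -1.15 and -1.01, with a median of -0.34 over the 17. Over all genes 5.19% were called lower in the limb pair, and 5.3% higher and 3.5% lower between the WT pieces. The dimmer probe set of Lama5 was less apart in the limb pair (-0.26) and as far apart between the WT pieces (1.18), and that of Smoc2 had -0.12 between the WT pieces. That of Lamc3 was less apart in both, at -0.28 in the limb pair and 0.53 between the WT pieces.

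Of the matrix proteins that bind fibrils, 2 of 23 were called higher in the limb pair, Prelp (1.48) and Lum, and 0 lower (median -0.09). The back pair had 2 of 24 called lower, Prelp (at least 2.95-fold) and Tnc (-1.15), and 0 higher (median -0.12). Between the WT pieces 1 was called higher and 5 lower, with 17 of 24 below 0 (median -0.29), where 5.3% of all genes were called higher and 3.5% lower. Lum, a proteoglycan that spaces fibrils, read 3668 in WT and 7791 in MyoD-null limb (1.09). Postn, a fibroblast protein of the periosteum and fascia, read 5509, 4501, 19889 and 16562, much lower in both limb arrays (WT ratio -1.85). Dcn read 2995, 2044, 8945 and 8930 (-1.58), although its other probe set had 0.82. Kera, a proteoglycan known from cornea, was the 1 called higher in limb, at 1814 and 1718 in the limb arrays and 523 and 592 in the back arrays. Thbs2 read 454, 425, 1309 and 785, and Fbln5 1002, 1060, 2209 and 2212. By these probe sets Postn, Thbs2 and Fbln5 had the order of Col14a1 and Col16a1, both limb arrays below both back arrays. Another Thbs2 probe set, at 790, 365, 816 and 605, did not have it (WT ratio -0.05). The fibroblast markers summed to 32334 and 38018 in limb and 34371 and 35094 in back. For WT limb over WT back 5 of these 10 markers lay above 0 and 5 below 0. The marker list shares genes with the list of matrix proteins, Dcn and Lum among them. The part of the fibroblast markers in the order of the matrix genes was not tested.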

How the data were processed

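RNA of 4 pieces of embryonic muscle was extracted with Trizol and labelled with biotin from 6 µg, per the labels' protocols. The table the authors deposited gives linear intensities, 1 for each probe set on each array. The submitters' processing notes name MAS5, and its version was not given in the sources used here. Deposited columns had 2% trimmed means of 1477 to 1479 and medians of 371 to 492. Of 45101 probe sets, 64 are controls, 34945 others have 1 gene symbol in the platform annotation, 932 have several and 9211 are not listed there.

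Leaving out controls, every array was scaled so that its 2% trimmed mean was 500, after which 56.0% to 63.7% of probe sets reached 100. A floor of 100 was applied before taking log2 ratios of 1 array over another, so ratios of dim genes understate a difference. Its brightest probe set by mean log2 signal stood for a gene, which was measured in a comparison when 1 of its arrays reached 100 and called at a ratio of 2 with the brighter array at 200. Where 1 array is under 100 the ratio is a bound, written "at least". The number of arrays limits the precision. Groups came from the sample titles.

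The collagens and the gene lists were chosen with earlier results of these data known. Every collagen could be named, with values on all arrays where it reached 200 on 1, and an opposite probe set at 100 or more is stated beside it. From each other list up to 4 genes with the largest ratios per comparison could be named, and not all of them were. Serpinh1, Lama4 and Fbln5 were named though they were not among these. As 8 alternatives, values were recomputed with no rescaling, quantile normalization, loess within a pair (span 0.3), floors of 50 and 200, a pseudocount of 100, the median over probe sets, and leaving out probe sets with shared probes. Steps were tested on simulated data. Python 3.11.15, pandas 2.3.3, numpy 2.4.6, statsmodels 0.14.6 and matplotlib 3.10.9 were used. Promoter windows came from RefSeq. Protein sequences were not used here.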

Additional observations from a re-analysis of the deposited data

Results flagged for a closer look

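By the probe sets used for the genes, the fibrillar collagens lay on opposite sides in the mutant pairs. Their log2 ratio was below 0 in the limb pair and above 0 in the back pair in 7 of 7 genes, and the median of the limb ratio minus the back ratio was -0.74. None of the 7 was called in either pair, each pair holds 1 array per group, and the difference was not tested. The back ratios were small, between 0.04 and 0.44. After quantile normalization 6 of 7 lay below 0 in the limb pair and 3 of 7 above 0 in the back pair, and with the median over probe sets 5 of 7 and 5 of 7. The median difference was -0.35 after quantile normalization and -0.27 after loess. In the limb pair the brightest probe set had the lowest ratio in 5 of 5 fibrillar genes with several probe sets.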

How the results depend on the processing

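Of 144 summary values recomputed under the 8 alternatives, 131 held and 13 moved, and no called value changed sign. In the limb pair 1 collagen was called higher under quantile normalization (Col4a6), and 1 lower under loess and a floor of 200 (Col12a1) and under the median over probe sets (Col4a3). In the back pair 0 were called higher under loess, a floor of 200 and a pseudocount of 100. There 1 was called lower under a floor of 200 and without probe sets with shared probes (Col8a1 both times) and under the median over probe sets (Col17a1), and 0 under the pseudocount. Without shared probes Col17a1 was not measured, since it has no other probe set. Between the WT pieces 0 were called higher under a floor of 200, and 1 was called lower without shared probes (Col14a1), where Col16a1 has no other probe set. A higher floor and a pseudocount shrink the ratios of dim genes by construction; the cause of the other shifts was not tested. Of 711 single-gene values 662 held and 49 moved, Col3a1 in the limb pair reaching 0.15 under quantile normalization.

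The scaling shifted the calls over all genes. The share of them that were higher was 30.7% in the limb pair, 45.4% after quantile normalization and 57.0% after loess. The same shares were 68.9%, 50.3% and 36.7% in the back pair, and 60.2%, 53.5% and 46.6% between the WT pieces. No paired analysis was possible because each group has 1 array, and for the same reason no array could be left out. Differences in collagens near 100 were limited by signal over background.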
